A study of Mus musculus with 5 samples.

Results

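The 40 genes described here are the members of the mouse Hox clusters: 38 Hox genes, and Evx1 and Evx2, the even-skipped homologues that sit at the ends of HoxA and HoxD. Their peaks were taken from 3 deposited ChIP-seq peak lists as the rows that carry a member's name, which gave 48 peaks of 89451 in all. Of these, 19 of 23244 came from ZHX1 ChIP in 46C-Ctrl cells, 5 of 14662 from hnRNPA1 ChIP in 46C-Ctrl cells and 24 of 51545 from hnRNPA1 ChIP in Zhx1-KO cells. The name in a list is that of a nearby gene, so the clusters were also read by position: the 4 spans from the outermost member gene on one side to the outermost on the other held 55 peaks, whatever their name.

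Hox genes encode homeodomain transcription factors that give cells their position along the head-to-tail axis. They lie in clusters in the order in which they act, with genes for anterior structures at one end and genes for posterior structures at the other, and they are opened and transcribed in that order during development. In embryonic stem cells their CpG-rich promoters are classic targets of Polycomb repression, and retinoic acid is a classic inducer of the anterior genes.

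ChIP-seq recovers chromatin with an antibody and sequences its DNA, and a peak is a stretch where the recovered fragments pile up. The cells were 46C mouse embryonic stem cells differentiated to the CP (cardiac progenitor) stage, either unedited (46C-Ctrl) or edited with CRISPR/Cas9 by guides at the start and the stop site of Zhx1 (Zhx1-KO). ZHX1 is a nuclear protein with zinc fingers and homeodomains, and hnRNPA1 binds RNA and takes part in splicing. The study mapped both proteins to ask if their interaction takes part in transcription at this stage. Each of the 3 ChIP groups had 1 library, ZHX1 ChIP was used here in 46C-Ctrl only, and the input libraries of both lines were not analysed here. No difference between lists could therefore be tested, and all counts are descriptions. The lists give positions without read counts or scores, so the depth behind each peak is unknown, and intervals are exact 95% intervals that cover counting error only. The lists hold no expression values, and neither the CP label nor the loss of Zhx1 could be checked from them: the body of Zhx1 held 1 ZHX1 peak, 0 hnRNPA1 peaks in 46C-Ctrl and 0 in Zhx1-KO. By name Zhx1 had 1, 0 and 1 peaks in the same order, the last of them outside its body. The Zhx1-KO list was the longest of the 3, and its larger counts below carry that difference in list length.

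There were 4 places in the spans that more than 1 list held, and 4 of the 5 sequences printed here come from them. All are GRCm38 plus-strand sequence from RefSeq, read 5′ to 3′. In the first 4 the capitals mark the bases that the lists share. The site labelled Evx2 intron, chr2:74657589-74657811, is the hnRNPA1 peak of 46C-Ctrl, and its capitals are the bases common to all 3 lists. Its label gives the place of the midpoint of the shared bases and not of every base. The site in an intron of Hoxd3, chr2:74732472-74732696, is also a 46C-Ctrl hnRNPA1 peak, with the bases shared with ZHX1 in capitals. The sites in coding sequence of Hoxa11, chr6:52245112-52245336, and of Hoxb2, chr11:96353195-96353491, are hnRNPA1 peaks of Zhx1-KO, with the bases shared with ZHX1 in capitals. The last sequence, chr15:102936626-102936756, is the part of a ZHX1 peak just upstream of the Hoxc12 start. It is shown because this peak covers the start itself, and its capitals mark the CG pairs.
Evx2 intron: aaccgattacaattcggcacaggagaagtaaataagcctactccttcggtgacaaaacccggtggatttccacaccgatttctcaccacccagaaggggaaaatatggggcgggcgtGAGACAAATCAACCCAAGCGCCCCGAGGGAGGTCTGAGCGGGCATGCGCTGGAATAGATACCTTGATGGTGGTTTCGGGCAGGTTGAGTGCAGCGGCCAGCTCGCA
Hoxd3 intron: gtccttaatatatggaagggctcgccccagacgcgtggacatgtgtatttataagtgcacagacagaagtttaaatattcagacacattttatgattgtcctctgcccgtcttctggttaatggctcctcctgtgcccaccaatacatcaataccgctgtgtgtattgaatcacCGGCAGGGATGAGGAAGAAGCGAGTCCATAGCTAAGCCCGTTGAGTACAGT
Hoxa11 coding exon: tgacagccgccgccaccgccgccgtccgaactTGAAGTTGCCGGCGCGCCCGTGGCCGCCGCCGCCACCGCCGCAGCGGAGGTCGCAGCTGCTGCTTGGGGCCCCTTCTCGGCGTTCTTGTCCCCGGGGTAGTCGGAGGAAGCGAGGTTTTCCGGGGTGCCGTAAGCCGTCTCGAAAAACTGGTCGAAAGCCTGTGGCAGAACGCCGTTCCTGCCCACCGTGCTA
Hoxb2 coding exon: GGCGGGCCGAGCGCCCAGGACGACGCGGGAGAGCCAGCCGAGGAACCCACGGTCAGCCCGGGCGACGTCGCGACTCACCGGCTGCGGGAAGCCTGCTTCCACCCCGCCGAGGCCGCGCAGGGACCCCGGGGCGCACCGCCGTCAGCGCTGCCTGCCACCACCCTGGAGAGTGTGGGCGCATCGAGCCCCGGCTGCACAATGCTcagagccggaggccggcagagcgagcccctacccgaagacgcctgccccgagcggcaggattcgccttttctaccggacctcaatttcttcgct
Hoxc12 upstream: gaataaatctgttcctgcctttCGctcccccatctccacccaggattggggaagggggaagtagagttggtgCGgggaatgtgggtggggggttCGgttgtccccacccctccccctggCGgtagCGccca

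The Hoxb2 site held 37 CG pairs in 297 bases and the Hoxa11 site 30 in 225 bases. The Evx2 site held 14 in 223 bases, the Hoxd3 site 8 in 225 bases, and the stretch upstream of Hoxc12 5 in 131 bases. The observed number of CG pairs over the number expected from the base composition (CpG o/e) was 1.13 at Hoxa11, 0.956 at Hoxb2, 0.832 at Evx2, 0.653 at Hoxd3 and 0.392 upstream of Hoxc12.

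The named peaks were spread unevenly over the clusters. HoxC carried the most ZHX1 peaks, 8, against 4 in HoxA, 3 in HoxB and 4 in HoxD. In the Zhx1-KO hnRNPA1 list HoxC carried 9, HoxB 7, HoxD 6 and HoxA 2. In the 46C-Ctrl hnRNPA1 list HoxB and HoxC carried 2 each, HoxD 1 and HoxA 0 of 14662 peaks, which allows a share of up to 0.0205% (3 counts of the total). As a share of the list, member-named peaks made up 0.0817% (0.0492 to 0.128) of ZHX1 peaks, 0.0341% (0.0111 to 0.0796) of 46C-Ctrl hnRNPA1 peaks and 0.0466% (0.0298 to 0.0693) of Zhx1-KO hnRNPA1 peaks, intervals that overlap.

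Counted by gene, 13 of the 40 members (32.5%) had a ZHX1 peak under their name, 3 (7.5%) one of hnRNPA1 in 46C-Ctrl and 14 (35%) one of hnRNPA1 in Zhx1-KO. Of the 21924 protein-coding genes of the annotation, 40.5% were named in the ZHX1 list, 31.2% in the 46C-Ctrl hnRNPA1 list and 57.7% in the Zhx1-KO list. The members' share was below that of all genes in each list. Its exact interval ran from 18.6 to 49.1% for ZHX1, which includes the value of all genes. It ran from 1.57 to 20.4% for hnRNPA1 in 46C-Ctrl and from 20.6 to 51.7% in Zhx1-KO, and both of these end below the value of all genes. Counted by position, as a gene whose body or promoter a peak touched, the members were 16 (40%, 24.9 to 56.7) for ZHX1 against 30.1% of all genes, 4 (10%, 2.79 to 23.7) for hnRNPA1 in 46C-Ctrl against 21.7% and 17 (42.5%, 27.0 to 59.1) in Zhx1-KO against 44.7%. By position the ZHX1 share was thus above that of all genes and the Zhx1-KO share close to it, and each of the 3 intervals includes the value of all genes.

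Peaks in all 3 lists were found under the names of 2 genes. Hoxc13, which acts in hair and nail, had 4 ZHX1 peaks, 2 hnRNPA1 peaks in 46C-Ctrl and 3 in Zhx1-KO. Evx2, at the posterior end of HoxD, had 3, 1 and 4 in the same order. Hoxb13, a gene of the tail region and the prostate, had 1 ZHX1 peak and 3 hnRNPA1 peaks in Zhx1-KO, and Hoxc12 had 1 and 2. Hoxb1, a regulator of hindbrain segments, was the 1 member named in both hnRNPA1 lists but not in that of ZHX1, with 2 peaks in each.

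The remaining named genes appeared in a single list. For ZHX1 these were Hoxc11 with 2 peaks and Hoxa4, Hoxa11, Hoxa13, Hoxb3, Hoxb6, Hoxc6, Hoxd11 and Evx1 with 1 each. For hnRNPA1 in Zhx1-KO they were Hoxc4 with 2 peaks and Hoxa5, Hoxa10, Hoxb5, Hoxb9, Hoxc8, Hoxc10, Hoxd3 and Hoxd12 with 1 each. No member was named in the 46C-Ctrl hnRNPA1 list alone. The 17 members with no named peak in any list were Hoxa2, Hoxa3, Hoxa6, Hoxa7, Hoxa9, Hoxb2, Hoxb4, Hoxb7, Hoxb8, Hoxc5, Hoxc9, Hoxd1, Hoxd4, Hoxd8, Hoxd9, Hoxd10 and Hoxd13. They include runs of neighbours, such as Hoxa6, Hoxa7 and Hoxa9 in HoxA and Hoxd8, Hoxd9 and Hoxd10 in HoxD.

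**Figure D1:**
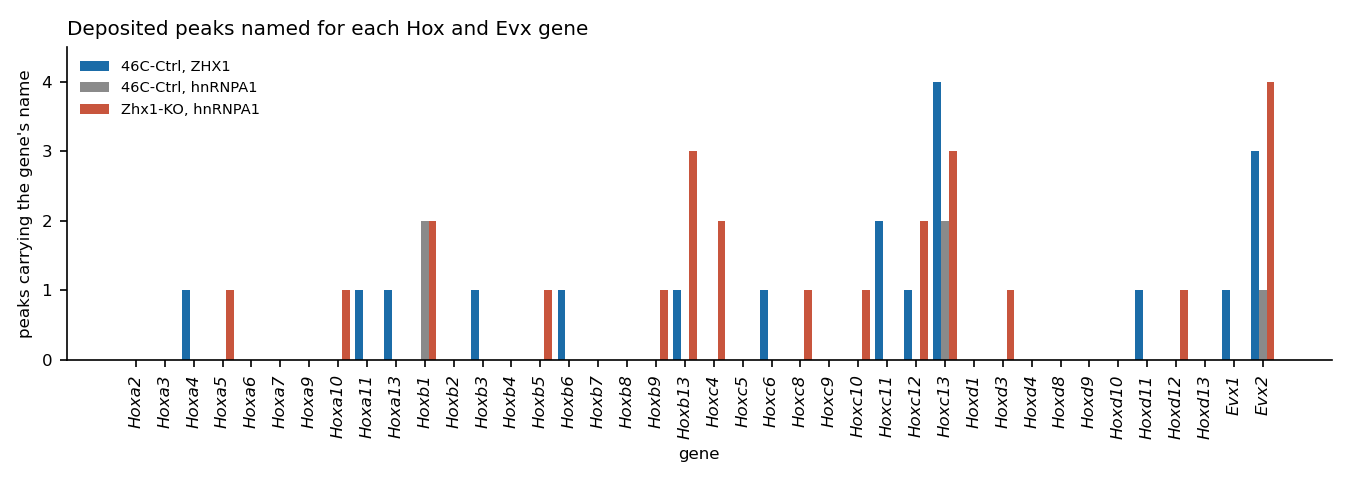
Number of deposited peaks that carry the name of each of the 40 genes (x axis), with one bar per list: ZHX1 in 46C-Ctrl (blue), hnRNPA1 in 46C-Ctrl (grey) and hnRNPA1 in Zhx1-KO (red). Hoxc13 and Evx2 reach 4 peaks in a list, and 17 genes have no bar.

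Along the axis, the genes of paralogue groups 9 to 13, which pattern the posterior trunk, limbs and tail, are 16 of the 40 members (40%) and carried 25 of the 48 named peaks (52.1%). The 7 anterior genes (groups 1 to 3) carried 6 peaks, the 15 central genes (groups 4 to 8) carried 8, and the 2 Evx genes carried 9. For ZHX1 alone the split was 1 anterior, 3 central, 11 posterior and 4 Evx peaks, and for hnRNPA1 in Zhx1-KO it was 3, 5, 12 and 4. Position at the end of a cluster moved with this count. The 8 outermost genes of the clusters carried 28 of the 48 peaks, and all 20 member-named peaks outside the spans were named for Hoxb13, Hoxb1, Hoxc13, Hoxc4 or Evx2. Inside the spans, where 28 peaks carried a member's name, 15 of them (53.6%) were named for posterior genes, 6 for central, 2 for anterior and 5 for Evx genes. Hoxc13 alone carried 9 of the 25 posterior names. Counted by a peak of any list within 2 kb of a start, 9 of the 16 posterior genes had one. So did 7 of the 15 central, 2 of the 7 anterior and 1 of the 2 Evx genes, a smaller contrast between posterior and central genes than by name.

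Most of the flanking peaks lay over 10 kb from the genes whose name they carry. The exceptions were a ZHX1 peak 1.183 kb upstream of Hoxc13, the ZHX1 peak near Hoxb13 and 1 hnRNPA1 peak near Hoxb1. The other flanking peaks of Hoxc13 lay up to 87.0 kb upstream of its start, where hnRNPA1 in 46C-Ctrl had a peak of 444 bases. ZHX1 peaks lay 62.2 kb and 10.3 kb upstream of it, and hnRNPA1 peaks of Zhx1-KO 12.5 kb and 11.7 kb upstream. The 3 Zhx1-KO peaks named Hoxb13 lay 16.5 kb to 27.6 kb upstream of that gene, with the widest of them at chr11:96166435-96166971 (537 bases), and the ZHX1 peak there, chr11:96190419-96190652 (234 bases), lay 3.78 kb upstream. Beyond Hoxb1, 2 hnRNPA1 peaks of 46C-Ctrl (223 bases each, the nearer at chr11:96371793-96372015) lay 5.65 kb and 31.2 kb downstream of the start, and 2 of Zhx1-KO lay 39.1 kb and 40.6 kb downstream. None of these peaks overlapped a peak of another list. Over the whole lists, 1.26 to 4.42% of peaks overlapped a peak of another list, depending on the pair, so most peaks had no overlap. Of all 48 named peaks, 17 lay within 2 kb of a start of their own gene and 18 lay over 10 kb away.

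Inside the spans the name hid about as many peaks as it showed. Only 28 of the 55 span peaks carried a member's name, 13 of 23 for ZHX1, 2 of 8 for hnRNPA1 in 46C-Ctrl and 13 of 24 in Zhx1-KO. Of the other 27, 1 had a blank name, and the rest carried names of non-coding genes that lie between and across the Hox genes, such as Mir10b, Mir615, Mir196a-2, Hottip, Hoxa11os and Hoxb3os. For 54 of the 55 the nearest start of a protein-coding gene was that of a member.

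**Figure D2:**
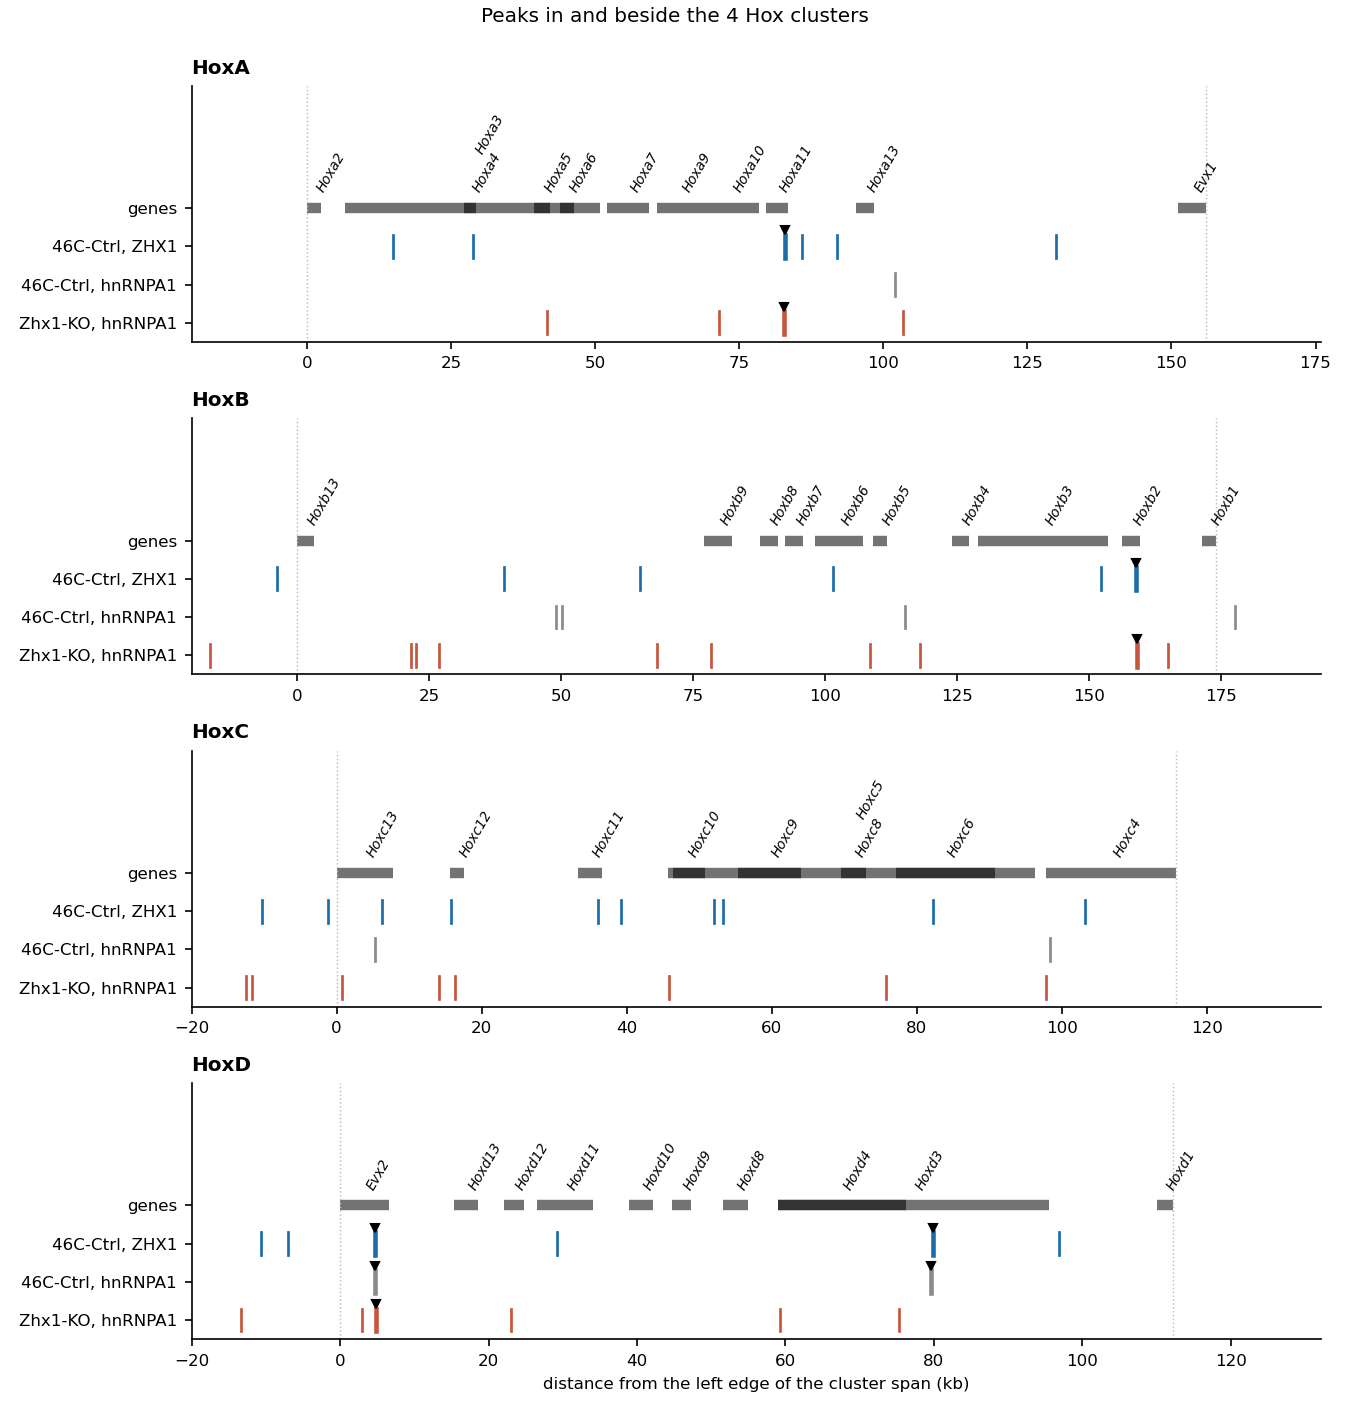
Peaks of the 3 lists (coloured ticks) below the Hox and Evx genes (bars, darker where genes overlap) of each cluster, with distance from the left edge of the span in kb on the x axis. Dotted lines mark the span, triangles mark peaks that overlap a peak of another list, and beyond the dotted lines only peaks that carry a member's name within 20 kb are drawn. The 4 shared places lie at Hoxa11, Hoxb2, Evx2 and Hoxd3.

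By position the spans held more peaks per length than the genome in all 3 lists. The spans are HoxA, chr6:52162417-52318378, HoxB, chr11:96194316-96368256, HoxC, chr15:102921103-103036852, and HoxD, chr2:74652991-74765142. ZHX1 had 23 peaks there, or 4.12 per 100 kb (2.61 to 6.19), against 0.878 over the genome, a ratio of 4.70 (2.98 to 7.05). hnRNPA1 had 8 in 46C-Ctrl, 1.43 per 100 kb (0.619 to 2.83) against 0.554, a ratio of 2.59 (1.12 to 5.103). In Zhx1-KO it had 24, 4.30 per 100 kb (2.76 to 6.40) against 1.95, a ratio of 2.21 (1.42 to 3.29). Set against the chromosomes that carry the clusters the ratios were 3.98, 2.14 and 1.75, and the interval of hnRNPA1 in 46C-Ctrl includes its chromosome value of 0.670 per 100 kb. Without the peaks of the smallest width in each list the ZHX1 density was 2.33 per 100 kb (1.24 to 3.99) against 0.559 over the genome. The Hox spans hold less repeat-masked sequence (14.6 to 24.6%) than the genome (36.4%) and more GC (48.9 to 49.2% against 41.7%), and the part of these differences in the density was not tested.

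HoxC was the densest span for ZHX1, with 8 peaks or 6.91 per 100 kb (2.98 to 13.6), followed by HoxA with 3.85 (1.41 to 8.37), HoxD with 3.57 (0.972 to 9.13) and HoxB with 2.87 (0.933 to 6.71). These intervals overlap, and no order among the clusters can be drawn from them. For hnRNPA1 in Zhx1-KO the values were 5.18 in HoxC and 5.17 in HoxB, 4.46 in HoxD and 2.56 in HoxA. hnRNPA1 in 46C-Ctrl had 0.641 per 100 kb in HoxA and 1.72 to 1.78 in the other 3 spans.

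**Figure D3:**
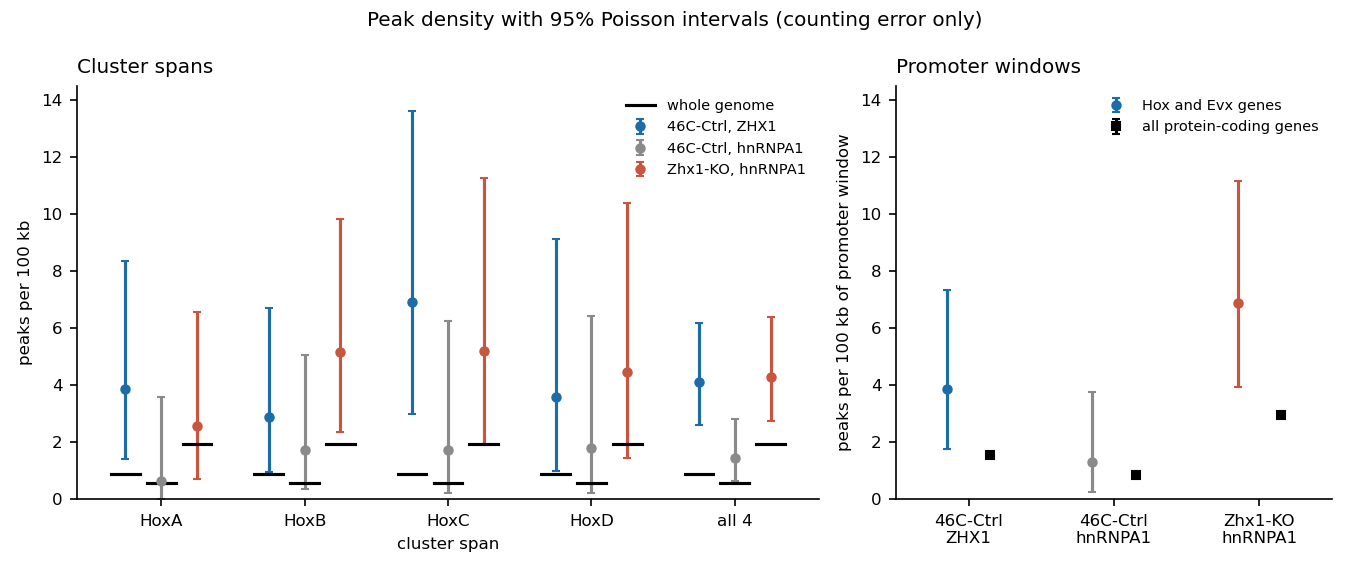
Left, peaks per 100 kb in each cluster span and in all 4 (points with exact 95% Poisson intervals) beside the density of the same list over the genome (black bars). Right, peaks per 100 kb of promoter window for the 40 Hox and Evx genes (coloured points) and for all protein-coding genes (black squares). For ZHX1 and for hnRNPA1 in Zhx1-KO the intervals of the 4 spans together and of the member promoters lie above the comparison value.

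The count at promoters ran the other way from the count by name for ZHX1 and for hnRNPA1 in Zhx1-KO, with a larger share of Hox and Evx genes than of all protein-coding genes. A promoter was taken as 2 kb to either side of any annotated transcript start. Of the 40 members, 9 (22.5%, 10.8 to 38.5) had a ZHX1 peak at a promoter, against 12.1% of protein-coding genes. For hnRNPA1 the count was 3 (7.5%, 1.57 to 20.4) in 46C-Ctrl against 6.77%, and 16 (40%, 24.9 to 56.7) in Zhx1-KO against 21%. The intervals for ZHX1 and for 46C-Ctrl hnRNPA1 include the value of all genes, and the interval for Zhx1-KO hnRNPA1 lies above it. With each list limited to its 14662 widest peaks, the length of the shortest list, 6 members (15%, 5.71 to 29.8) had a promoter peak for ZHX1 against 8.27% of all genes, and 5 (12.5%, 4.19 to 26.8) for Zhx1-KO hnRNPA1 against 7.28%. The members' share stayed above that of all genes at equal length, with intervals that include it. With promoters of 5 kb the ZHX1 count was 15 members (37.5%, 22.7 to 54.2) against 20.3%, an interval above the value of all genes. Per 100 kb of promoter window, which takes out the number of starts per gene, the member promoters held 3.86 ZHX1 peaks (1.77 to 7.34) against 1.55, 1.29 hnRNPA1 peaks in 46C-Ctrl (0.266 to 3.76) against 0.860, and 6.87 in Zhx1-KO (3.93 to 11.2) against 2.95.

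Evx2 and Hoxd3, a gene of the cervical spine, had promoter peaks in all 3 lists. Hoxa11, Hoxb2, Hoxc12 and Hoxc13 had one for ZHX1 and for hnRNPA1 in Zhx1-KO, and Hoxc4 had one in both hnRNPA1 lists. Hoxa4, Hoxc9 and Hoxd11 had a promoter peak for ZHX1 alone. Hoxa5, Hoxa10, Hoxb5, Hoxb9, Hoxc5, Hoxc6, Hoxc10, Hoxd4 and Hoxd12 had one for hnRNPA1 in Zhx1-KO alone. The other 21 members had none.

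The site in Evx2 was the 1 place in the clusters held by all 3 lists. ZHX1 had a peak at chr2:74657584-74657827, hnRNPA1 in 46C-Ctrl at chr2:74657589-74657811 and hnRNPA1 in Zhx1-KO at chr2:74657706-74657954. The 2 peaks of 46C-Ctrl coincided nearly edge to edge, and the Zhx1-KO peak began inside them and ran on towards the Evx2 start. All 3 shared 106 bases, chr2:74657706-74657811. Their midpoint fell in the intron, 1.66 kb from the Evx2 start, and the centre of the Zhx1-KO peak fell in coding sequence. The midpoint does not place every shared base in the intron. A further Zhx1-KO peak lay in Evx2 coding sequence at chr2:74655810-74656099. Downstream of the gene, ZHX1 had peaks 13.4 kb and 17.0 kb from the start. hnRNPA1 of Zhx1-KO had peaks 19.8 kb and 29.1 kb from it. None of these overlapped, as for most peaks of each list.

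At Hoxd3 the lists met at different starts. ZHX1, chr2:74732646-74733133, and 46C-Ctrl hnRNPA1, chr2:74732472-74732696, shared 51 bases 0.242 kb from one annotated start, under the name Mir10b, and the ZHX1 peak covered that start. The Zhx1-KO peak of the same gene, chr2:74712098-74712345, lay at the far upstream start, which lies beside a start of Hoxd4. A second Zhx1-KO peak named Mir10b, chr2:74728061-74728564 (504 bases), was centred in Hoxd4 coding sequence.

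Hoxa11, which patterns the forearm and the uterus, and Hoxb2, a hindbrain gene, were the 2 places shared by ZHX1 and Zhx1-KO hnRNPA1 without the 46C-Ctrl hnRNPA1 list. At Hoxa11 the ZHX1 peak, chr6:52245144-52245547, and the Zhx1-KO peak, chr6:52245112-52245336, shared 193 bases of coding sequence under the name Hoxa11os, the antisense transcript of the gene. At Hoxb2 the ZHX1 peak, chr11:96353170-96353397, and the Zhx1-KO peak, chr11:96353195-96353491, shared 203 bases of coding sequence under the name Hoxb3os. Both sites are printed above, and neither gene had a hnRNPA1 peak in 46C-Ctrl within its promoter window.

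**Figure D4:**
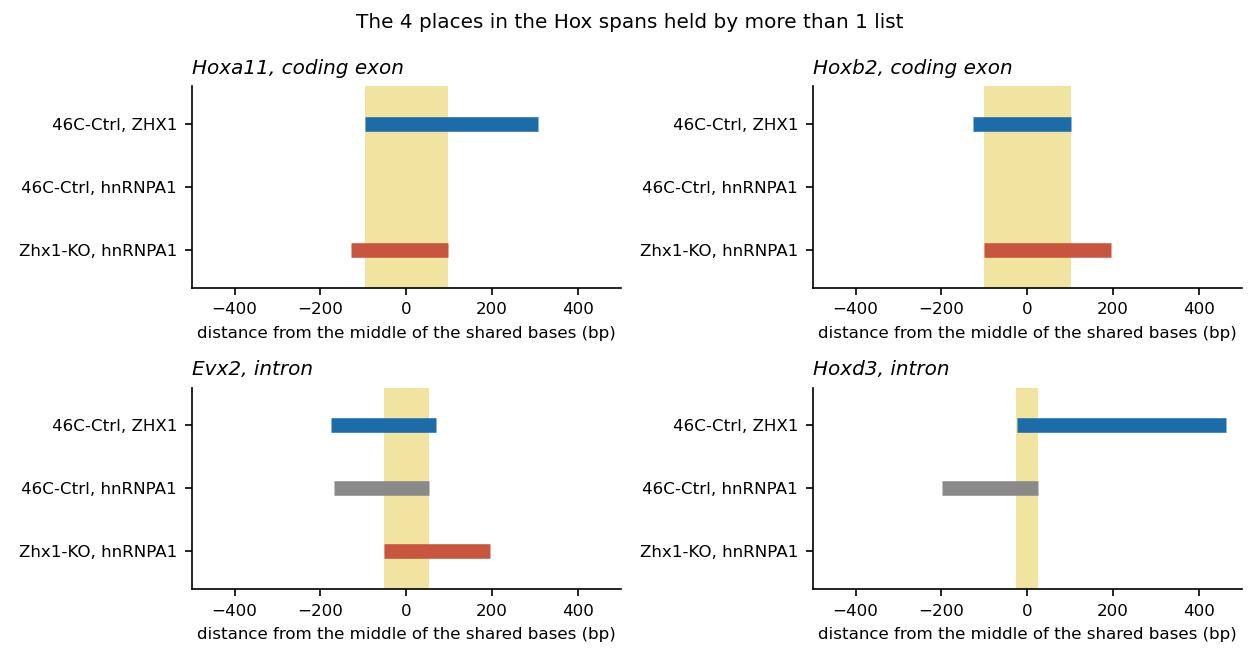
The 4 places in the Hox spans where peaks of different lists overlap, with distance in bp from the middle of the shared bases on the x axis, one bar per peak and the shared bases shaded. The Evx2 site is held by all 3 lists, the Hoxd3 intron by both 46C-Ctrl lists, and the coding sequence of Hoxa11 and Hoxb2 by ZHX1 and Zhx1-KO hnRNPA1. Panel titles give the place of the midpoint of the shared bases.

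Among the member-named peaks, sharing between lists was limited to 1 site. Of the member-named peaks, 1 of 19 ZHX1 peaks was overlapped by 46C-Ctrl hnRNPA1, against 2.6% of all ZHX1 peaks, and 1 of 5 in the other direction, against 4.12%. Of the 5 peaks of hnRNPA1 in 46C-Ctrl, 1 was overlapped in Zhx1-KO, against 4.41% of the list, and 1 of the 24 in Zhx1-KO by 46C-Ctrl, against 1.26%. ZHX1 and Zhx1-KO hnRNPA1 overlapped at 1 of 19 ZHX1 peaks, against 4.42%, and at 1 of 24 Zhx1-KO peaks, against 1.99%. The single ZHX1 peak met by both hnRNPA1 lists stands beside 0.521% of all ZHX1 peaks. All of these single overlaps are the Evx2 site. The count over the spans was an alternative added after the data were seen. There 2 of 23 ZHX1 peaks (8.70%, 1.07 to 28.0) met 46C-Ctrl hnRNPA1 and 2 of 8 the other way round (25%, 3.19 to 65.1), intervals that include the list values. ZHX1 and Zhx1-KO hnRNPA1 met at 3 of 23 ZHX1 peaks (13.04%, 2.78 to 33.6), an interval that includes the 4.42% of the list. The same overlaps were 3 of 24 Zhx1-KO peaks (12.5%, 2.66 to 32.4), an interval above the 1.99% of the list. Between the hnRNPA1 lists, 1 of 8 peaks of 46C-Ctrl and 1 of 24 of Zhx1-KO were shared. At the 7 other hnRNPA1 peaks of 46C-Ctrl in the spans, no Zhx1-KO peak overlapped.

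Peaks that did not overlap could still lie close. From each hnRNPA1 peak of 46C-Ctrl in the spans the nearest Zhx1-KO peak lay at a median of 3.16 kb, and 3 of the 8 had one within 1 kb or overlapping. At Hoxc4 the Zhx1-KO peak, chr15:103018718-103018988, covered a start of the gene and the 46C-Ctrl peak, chr15:103019376-103019610, lay in the intron behind it, both under the name Mir615. At Hottip, a non-coding gene beside Hoxa13, the 46C-Ctrl peak, chr6:52264259-52264689, and the Zhx1-KO peak, chr6:52265605-52265909, stood apart in the same gene. From each ZHX1 peak the nearest hnRNPA1 peak lay at a median of 16.9 kb in 46C-Ctrl and 6.09 kb in Zhx1-KO, lists that differ in length.

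Hoxc13 held peaks of all 3 lists without overlap, as for most peaks of each list. Its neighbour Hoxc12 held peaks of ZHX1 and of Zhx1-KO hnRNPA1. hnRNPA1 in Zhx1-KO had its widest member peak, 1004 bases, just inside Hoxc13 at chr15:102921320-102922323, in coding sequence 0.718 kb from the start. hnRNPA1 in 46C-Ctrl had its widest, 539 bases, in the intron at chr15:102926085-102926623, and ZHX1 had one 0.55 kb further on at chr15:102927174-102927533. ZHX1 also had a peak 1.183 kb upstream of Hoxc13, chr15:102919807-102920034. At Hoxc12 the ZHX1 peak, chr15:102936626-102937043, covered the start, and hnRNPA1 peaks of Zhx1-KO lay on either side of it, at chr15:102935038-102935268 and chr15:102937333-102937556.

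The other peaks at their own gene's start were found in a single list. ZHX1 peaks lay in Hoxa4 coding sequence, chr6:52191086-52191313, 0.554 kb from the start, and over a start of Hoxd11, chr2:74682003-74682381 (379 bases). Zhx1-KO hnRNPA1 peaks lay in coding sequence of Hoxa5, chr6:52203910-52204133, a gene of the airways, and of Hoxa10, chr6:52233737-52234223, a gene of the lumbar spine and uterus. They also lay in coding sequence of Hoxc10, chr15:102966843-102967066, 0.158 kb from its start, and of Hoxd12, chr2:74675757-74676185 (429 bases). The Hoxc10 peak also counts for Hoxc5, because an annotated Hoxc5 transcript starts beside Hoxc10. In HoxB, Zhx1-KO peaks lay in the Hoxb9 intron, chr11:96272549-96272850, and 0.594 kb upstream of a Hoxb5 start, chr11:96302618-96302867. The widest ZHX1 peaks farther from a start were those of Hoxc6, chr15:103003174-103003623, and of Hoxa13, chr6:52254196-52254555. The Hoxc6 peak was 450 bases wide and lay in an intron. The Hoxa13 peak was 360 bases wide and lay downstream of the gene, 6.43 kb from its start. The ZHX1 peak nearest to a start in HoxB among those named for a member was in a UTR of Hoxb3, chr11:96346378-96346605.

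Many of the hnRNPA1 peaks of Zhx1-KO in the spans lay in Hox coding exons. Of these 24 peaks, 11 (45.8%, 25.6 to 67.2) were centred in coding sequence, against 3.73% of the whole Zhx1-KO list. For ZHX1 the count was 4 of 23 (17.4%, 4.95 to 38.8) against 3.30% of its list, and for hnRNPA1 in 46C-Ctrl it was 0 of 8, which allows a share of up to 37.5% (3 counts of the total), against 2.96%. Coding sequence made up 6.81% of the spans and 1.38% of the genome. Introns held 11 of the 23 ZHX1 peaks, 5 of the 8 hnRNPA1 peaks of 46C-Ctrl and 3 of the 24 of Zhx1-KO. The Hoxa11 and Hoxb2 sites printed above are CpG-rich coding sequence, and the part of base composition in these counts was not tested.

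The sequence under the Hox peaks differed from that under the rest of each list. Member-named peaks had a median GC content of 56.4% for ZHX1, 49.8% for hnRNPA1 in 46C-Ctrl and 59.2% in Zhx1-KO, against 46.3%, 46.7% and 48.3% for all peaks of those lists. Their median CpG o/e was 0.375, 0.230 and 0.543, against 0.180, 0.172 and 0.187. None of the 48 had a median copy number of its 32-base words of 2 or more in the assembly, whereas 25.2%, 24.4% and 31.4% of all peaks did. The overlaps between lists over the whole genome were mostly of that multi-copy kind, 59.8 to 80.2% of the shared peaks depending on the pair, and all 4 shared places in the Hox spans were single-copy.

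Most of the CpG-rich peaks in the spans lay at a member promoter, but 9 of the 27 peaks there were not CpG-rich. A peak with CpG o/e above 0.6 and GC above 50% was called CpG-rich, and 22 of the 55 span peaks were, 18 of them among the 27 at a member promoter. The median CpG o/e was 0.749 for peaks at a member promoter and 0.279 for the others. At member promoters inside or outside the spans, 7 of 9 ZHX1 peaks (77.8%, 40.0 to 97.2) were CpG-rich. This count adds the ZHX1 peak upstream of Hoxc13, which lies outside the span. It stands against 22.3% of ZHX1 peaks at promoters of all protein-coding genes. For hnRNPA1 in Zhx1-KO the CpG-rich peaks were 10 of 16 (62.5%, 35.4 to 84.8) against 26.7%, and in 46C-Ctrl 1 of 3 against 8.87%. The part of the base composition of the Hox and Evx promoters themselves in these shares was not tested. Of the 9 peaks that make up the 4 shared places, 8 were CpG-rich, and the exception was the 46C-Ctrl hnRNPA1 peak at Hoxd3.

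**Figure D5:**
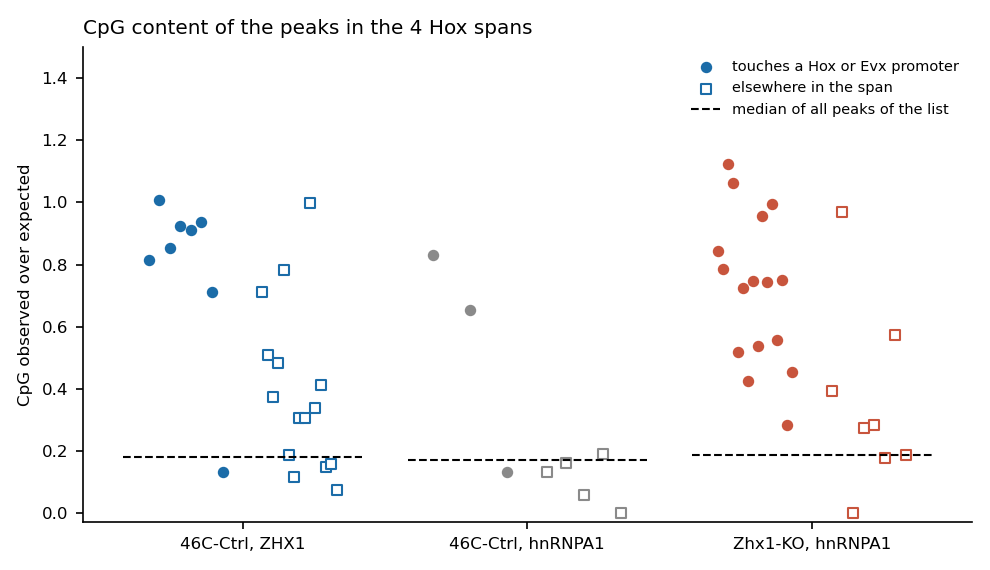
CpG observed over expected (y axis) of each of the 55 peaks in the Hox spans, by list, for peaks that touch a member promoter (filled circles) and the others (open squares), with the median of all peaks of the list as a dashed line. Of the 27 peaks at promoters 18 were CpG-rich, and the medians were 0.749 at promoters and 0.279 elsewhere.

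Short motifs were searched on both strands as plain letters. TAGGG, which matches the core of the RNA motif that hnRNPA1 binds, occurred in 11 of 23 span peaks of ZHX1 (47.8%), 4 of 8 of hnRNPA1 in 46C-Ctrl (50%) and 13 of 24 in Zhx1-KO (54.2%), against 34.5%, 35.0% and 35.3% of all peaks of those lists. TAAT, the core of homeodomain sites, occurred in 11 (47.8%), 4 (50%) and 7 (29.2%) of them, against 71.0%, 71.0% and 66.9%. CCAAT, the NF-Y site, occurred in 8 (34.8%), 4 (50%) and 5 (20.8%), against 36.4%, 36.3% and 38.2%. Span peaks had median widths of 326, 245.5 and 295.5 bases and all peaks of 259, 257 and 271 bases, so the chance of a match is not equal. Base composition differed too. The median GC of span peaks was 57.5%, 49.5% and 59.6%, against 46.3%, 46.7% and 48.3% of all peaks. The part of width and composition in the motif counts was not tested. Of the printed sites, Hoxb2 held TAGGG, Evx2 and Hoxd3 held TAAT, and Hoxd3 and the stretch upstream of Hoxc12 held CCAAT.

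The microRNA genes inside the clusters, which are known to repress Hox transcripts, gave their names to 11 of the span peaks. The sequences of miR-10 and miR-196, from RefSeq, are shown because the peaks carry these genes' names, with the seed (bases 2 to 8) in capitals.
mmu-miR-10a-5p: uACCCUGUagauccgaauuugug
mmu-miR-10b-5p: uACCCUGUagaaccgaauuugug
mmu-miR-196a-5p: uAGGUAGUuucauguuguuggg
mmu-miR-196b-5p: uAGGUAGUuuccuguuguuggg

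The miR-10 forms share 1 seed and the miR-196 forms share another. Mir10b and Mir615 were each named once in all 3 lists, Mir196a-1 once for ZHX1 and once for Zhx1-KO hnRNPA1, Mir196a-2 in 2 ZHX1 peaks and Mir10a in 1 Zhx1-KO peak, while Mir196b was named in none. None of these peaks overlapped the hairpin or, for Mir615, the stretch of its mature products. The closest was a ZHX1 peak at chr15:102972963-102973306, which ended 44 bases before the Mir196a-2 hairpin, chr15:102973350-102973434. The other ZHX1 peak of that name, chr15:102974198-102974540, began 0.764 kb from the hairpin. Next came the Zhx1-KO peak 1.92 kb from the Mir10b hairpin, and the ZHX1 peak nearest to the Mir10b hairpin lay 6.51 kb away, at Hoxd3.

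Genes that work with or beside the Hox genes were counted by name in the same way. The TALE homeodomain cofactors are DNA-binding partners of Hox proteins. Of 9 such genes, 5 were named for ZHX1, 6 for hnRNPA1 in 46C-Ctrl and 6 for hnRNPA1 in Zhx1-KO. In that order of lists Meis1 had 2, 1 and 20 peaks, Meis2 4, 2 and 2 and Pknox1 2, 2 and 1. Pbx2 and Pbx4 were named in no list. How the number of peaks per gene compares with that of other genes was not tested. Of 8 retinoic acid genes 7, 6 and 7 were named in the same order of lists, among them the receptor gene Rarb with 4, 2 and 11 peaks, and Cyp26a1, whose product degrades retinoic acid, with 3, 4 and 6. Of 15 Polycomb genes 8, 7 and 10 were named, with Jarid2 at 5, 2 and 3, and of 9 trithorax genes 3, 5 and 7, with Wdr5 at 1, 2 and 6. Of 6 Cdx and ParaHox genes 4, 0 and 3 were named. Of 26 other homeobox genes 17, 13 and 20 were named, with Irx1 at 7, 5 and 13 and Irx3 at 3, 7 and 13. Of the 13 genes that border the clusters 8, 8 and 11 were named, among them Snx11, near HoxB, with 3, 1 and 11 peaks. These counts by name are to be read beside the background of 40.5%, 31.2% and 57.7%, and no test was made between the lists of genes.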

How the data were processed

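ChIP-seq peak lists of 3 samples were used, 1 library per group, with groups taken from the sample titles. Per the labels and the study's methods, the authors used cutadapt 1.18 for trimming, kept reads of 50 bases or more, mapped to GRCm38 using Bowtie2 2.3.5.1 and removed unmapped, non-unique and duplicate reads. BWA 0.7.12-r1039 and deepTools 3.3.0 are also listed in the submitters' processing notes. For the peak caller, its threshold and the use of the input, the sources used here give nothing. The deposited values are peak positions and a gene name, with no score, signal or count, so depth is unknown and longer lists cannot be told apart from deeper or less strictly called ones. The smallest width of each list (228, 223 and 224 bases) was shared by 36.4, 33.7 and 28% of its peaks.

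Positions are 1-based. Overlap meant at least 1 bp, and genes came from GENCODE M21. Copy number is the median count of a peak's 32-base words in the GRCm38 assembly on both strands. Intervals are exact binomial (Clopper-Pearson) or exact Poisson. Named were all members with a peak, and positions were given for member peaks that overlap another list, lie within 2 kb of their own start, or are the widest or nearest to a start per list and cluster. The sites named for non-coding genes, the overlap of span peaks, the promoter-window density and the coding share were added after the data were seen. One result that this rule would give is not reported here. The members and gene lists were chosen with earlier results of these data known. Overlap and copy-number steps were tested on simulated data. Scripts ran under Python 3.11.15 with scipy 1.17.1, pandas 2.3.3, matplotlib 3.10.9, numba 0.67.0 and numpy 2.4.6.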

Additional observations from a re-analysis of the deposited data

How the results depend on the processing

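Of 52 alternative values, 34 stayed within 1.5 times the main value in either direction and 18 moved further. A moved value could still lie within the interval of the main value. The ZHX1 promoter shares of 12.5% and 37.5% below did so, with a main interval of 10.8 to 38.5%. With only peaks wider than the smallest width of the list, member-named peaks fell to 9 for ZHX1 and 2 for hnRNPA1 in 46C-Ctrl, the ZHX1 density in the spans to 2.33 per 100 kb, and the members named to 7 for ZHX1 (17.5% against 30.7% of all genes) and 1 for hnRNPA1 in 46C-Ctrl (2.5% against 23.5%). Naming each peak by the nearest start of a protein-coding gene raised the hnRNPA1 counts to 13 in 46C-Ctrl and 38 in Zhx1-KO. With all lists at the length of the shortest, the members named were 7 for ZHX1 (17.5% against 30.6% of all genes) and 6 for Zhx1-KO hnRNPA1 (15% against 30.4%), and those with a promoter peak 5 for Zhx1-KO hnRNPA1 (12.5% against 7.28%). Promoters of 1 kb gave 5 members for ZHX1 (12.5% against 8.51%), and promoters of 5 kb gave 15 for ZHX1 (37.5% against 20.3%) and 5 for hnRNPA1 in 46C-Ctrl (12.5% against 13.1%). The overlap of ZHX1 with 46C-Ctrl hnRNPA1 rose from 1 to 2, both with centres within 1 kb and with all span peaks, an alternative added after the data were seen, and that of ZHX1 with Zhx1-KO hnRNPA1 rose to 2 and 3. The hnRNPA1 overlap between 46C-Ctrl and Zhx1-KO fell to 0 when it had to cover at least 50% of the smaller peak, since at Evx2 the shared bases are fewer than that. Apart from these constructions, the cause was not tested. No paired analysis was possible because each group had 1 library. No replicate could be left out for the same reason. Without counts or scores a missing peak does not show a missing signal, and peaks in repeats were limited by the removal of non-unique reads.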
